A study of Rattus norvegicus with 6 samples.

Results

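The TGF-beta ligands, receptors and Smads were described in rat lung as 10 genes, Tgfb1, Tgfb2, Tgfb3, Tgfbr1, Tgfbr2, Tgfbr3, Smad2, Smad3, Smad4 and Smad7, of the 21655 gene names in the transcript table. The members were chosen by gene name, and no measured value entered the rule, though earlier results of these data were known. Their names stood on 58 of 70376 transcript rows and on 12 of 5216 circular RNAs (circRNAs). The control group was 3 Sprague-Dawley rats given saline into the trachea, and the PF (pulmonary fibrosis) model group was 3 rats of the same strain given bleomycin at 7 mg/kg by the same route. All were 7 weeks old at the start and were killed on day 28. Bleomycin is an anticancer drug whose instillation injures the alveolar epithelium and is widely used to induce fibrosis. One library per rat was made from whole lung RNA depleted of rRNA, so neither group resolves cell types. In such bulk samples, fewer cells of a type and less RNA per cell cannot be told apart.

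TGF-beta is secreted as a latent complex, from which integrins and proteases release the active ligand. The ligand binds Tgfbr2, which recruits and phosphorylates Tgfbr1, while Tgfbr3 (betaglycan) presents ligand to them. Tgfbr1 phosphorylates Smad2 and Smad3, which join Smad4 and act on target genes in the nucleus, and Smad7 is an inhibitor that the pathway itself induces. In lung, the pathway is best known for turning fibroblasts into myofibroblasts and for raising collagen synthesis.

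The values are FPKM (fragments scaled by transcript length and by sequencing depth), summed over the rows of a gene. Reads per gene were estimated from the per-base coverage, and those of all named genes summed to between 32695820 and 37470553 per library. A member had between 502 (Tgfb3) and 15443 (Tgfbr2) of them in a library. Back-splice reads, which cross the junction of a circRNA, numbered between 2037 and 2964 per library. Of 56 marker genes of 16 lung and blood cell types, 52 were in the table, none passed an unadjusted p of 0.05, and in none of the 16 lists did the summed levels of the groups lie apart. The alveolar type 2 list summed to between 4256 and 6562 FPKM, as a check of the tissue. Of the defining markers, Foxj1, Pecam1, Marco and Cd79a were not in the table under those names. The 3 cardiac muscle markers (Myh6, Myl7 and Tnnt2) summed to 11.7 FPKM in Model 3 and to between 0.553 and 0.888 in the other libraries, and the 3 smooth muscle markers (Myh11, Cnn1 and Des) were also highest there, at 76.1 FPKM against 43.0 to 60.7.

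No member gene differed between PF model and control samples at an unadjusted p of 0.05. Of the 9 members in the fit (Smad4 has no annotated row and was tested apart), 0 passed in limma, against 4.9% of the 19203 genes tested. None passed an adjusted p of 0.05, as 0.0104% of all genes did, or an unadjusted p of 0.05 with an absolute log2 ratio of group means of 1, as 1.53% did. Of all genes, 415 passed higher and 525 lower in PF model samples. After rescaling to TPM, which sets each library to the same sum, these were 689 and 247, and 1 member passed, Tgfbr2 (log2 fold change 0.26, adjusted p = 0.908). A log2 fold change above 0 was found for 7 of the 9, but Tgfb1, Tgfb2, Tgfb3, Tgfbr3 and Smad7 changed sign when single rats were left out. The adjusted p of the 9 members was at least 0.934. Their median log2 fold change was 0.01, and that of all genes tested was -0.01. The groups lay apart, with no overlap of samples, for 2 of the 9 (Tgfbr2 higher, Smad2 lower), and for 10.7% of all genes. The receptor Tgfbr2 held the highest level of the family and the ligand Tgfb3 the lowest in each of the 6 libraries.

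**Figure D1:**
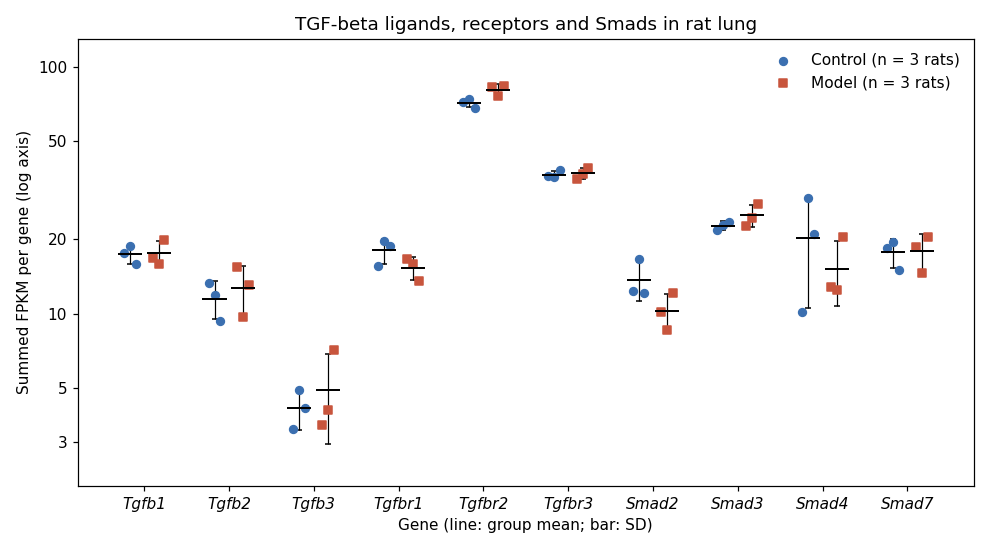
Summed FPKM per gene on a log axis for the 10 member genes, with 1 point per rat (circles for control, squares for PF model), a line at the group mean and a bar of 1 SD. Samples of the groups overlap for each gene except Tgfbr2, where the lowest PF model sample is at 76.1 and the highest control sample at 74.2, and Smad2, where the highest PF model sample is at 12.1 and the lowest control sample at 12.2.

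Among the ligands, Tgfb1, the isoform most studied in fibrosis, lies at chr1:82480195-82497199 on the + strand of the build used by the files. It was measured by a single annotated transcript, ENSRNOT00000028051. Its level was 17.5, 18.9 and 15.9 FPKM in the control samples and 16.8, 15.9 and 19.9 FPKM in the PF model samples. The groups overlapped throughout, and the means were 17.4 ± 1.49 and 17.6 ± 2.09 FPKM (SD, n = 3). The log2 fold change was 0.01 with a standard error of 0.11 (adjusted p = 0.9999, limma; exact permutation p = 0.9). On the log2(FPKM + 1) scale, the 95% interval ran from 0.836-fold to 1.21-fold, so the data of 3 rats a group are compatible with changes within that range.

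Tgfb2 (chr13:105039853-105141030, - strand) encodes a ligand that needs Tgfbr3 for efficient receptor binding. It stood at 13.2, 11.9 and 9.29 FPKM in control samples and at 15.4, 9.65 and 13.05 FPKM in PF model samples. The highest and the next to lowest values both belonged to the PF model group, and the log2 fold change was 0.13 (95% interval -0.34 to 0.59, adjusted p = 0.959, limma). Most of its signal came from the annotated ENSRNOT00000003313, with 72.1% ± 4.49 of the gene's FPKM in control and 69.7% ± 1.20 in PF model samples (SD, n = 3).

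Tgfb3 (chr6:109913757-109936223, - strand), a ligand known for its part in lung and palate development, was the least abundant member. Its values were 3.39, 4.91 and 4.13 FPKM in control and 3.53, 4.06 and 7.14 FPKM in PF model samples. Model 3 alone exceeded the control range. Its log2 fold change of 0.16 (adjusted p = 0.958, limma) changed sign without that library, at -0.09. Model 3 was also the library with the highest muscle marker sums, whose part in this value was not tested. Its more abundant row, the assembled MSTRG.31203.2, overlapped between the groups, from 2.09 FPKM in Control 1 to 4.60 FPKM in Model 3. The annotated Tgfb3 transcript ENSRNOT00000013516 was at 0 in Model 1 and at 2.54 FPKM in Model 3.

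Among the receptors, Tgfbr2 (chr8:124312754-124399494, - strand) was the most abundant. It stood at 72.1, 74.2 and 68.4 FPKM in control and at 83.1, 76.1 and 83.4 FPKM in PF model samples. Each PF model sample exceeded each control sample. The means were 71.6 and 80.9 FPKM, a log2 fold change of 0.17 with a 95% interval of -0.01 to 0.36 (adjusted p = 0.934, limma). It missed the unadjusted threshold of 0.05, and the exact permutation p was 0.1, the smallest that 3 rats against 3 allow. The gene has 1 annotated transcript, ENSRNOT00000037883, and 6 assembled rows inside its introns, all given on the + strand, opposite to the gene. The annotated transcript took 48.1, 49.0 and 43.9 FPKM in control and 55.6, 50.4 and 56.1 FPKM in PF model samples, again with no overlap. In a fit limited to rows that match or share a splice junction with an annotated transcript, which was added after the data were seen, Tgfbr2 had a log2 fold change of 0.20 and passed the unadjusted threshold, with an adjusted p of 0.950. The rows inside introns summed to 24.01, 25.2 and 24.5 FPKM in control and to 27.6, 25.7 and 27.3 FPKM in PF model samples. This sum also lay higher in each PF model sample, but the groups overlapped for each of these rows singly. MSTRG.35932.1 had a lower mean in PF model samples, 3.88 against 4.11 FPKM. Counted as estimated reads per 1000000 reads of named genes, Tgfbr2 had a mean of 367 in control and 411 in PF model samples. Whether Tgfbr2 passed the unadjusted threshold depended on the rows and the scale used, and the adjusted p was at least 0.908 under every alternative that kept all 6 rats.

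Tgfbr1 (chr5:63050758-63125897, + strand), the kinase that phosphorylates Smad2 and Smad3, was at 15.6, 19.7 and 18.7 FPKM in control and at 16.6, 15.9 and 13.5 FPKM in PF model samples. The groups overlapped, and the log2 fold change was -0.22 (95% interval -0.51 to 0.07, adjusted p = 0.934, limma). Without Control 1, the lowest control sample, it was -0.31 and passed the unadjusted threshold (adjusted p = 0.891, limma). This gene was split over 11 rows, of which the assembled MSTRG.27937.4 was the most abundant with a mean of 3.33 FPKM over the 6 samples. Its annotated transcript ENSRNOT00000009452 was at 2.83 FPKM in Model 1 and at 0.0412 FPKM or less in the other libraries. Taken over annotated transcripts only, the log2 fold change of Tgfbr1 was 0.56 (adjusted p = 0.972, limma), with the opposite sign.

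Tgfbr3 (chr14:3506339-3682545, + strand), which encodes betaglycan, was close to level between the groups. It had 36.0, 35.7 and 38.2 FPKM in control and 35.1, 36.9 and 39.0 FPKM in PF model samples. Its log2 fold change was 0.01 (95% interval -0.16 to 0.19, adjusted p = 0.996, limma). Tgfbr3 made up 29.0% ± 1.44 of receptor FPKM in control and 27.8% ± 1.54 in PF model samples (SD, n = 3), a difference with an exact permutation p of 0.4.

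**Figure D2:**
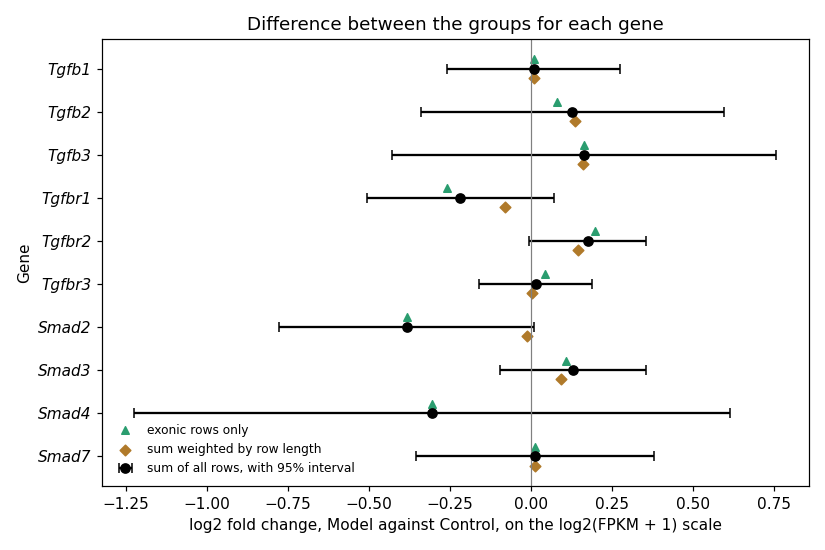
Log2 fold change of PF model against control samples for each member gene, on the log2(FPKM + 1) scale, with the 95% interval of the limma fit (circles). Triangles show the fit on rows that match or share a junction with an annotated transcript, and diamonds show sums weighted by row length (not drawn for Smad4). Each interval includes 0, those of Tgfbr2 and Smad2 only just, and weighting moved Smad2 from -0.38 to -0.01.

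Among the Smads, Smad2 (chr18:72550219-72620836, + strand) was lower in PF model samples by the plain sum. Its level was 12.4, 16.6 and 12.2 FPKM in control and 10.1, 8.61 and 12.1 FPKM in PF model samples. Control 3 and Model 3, the nearest values of the groups, were 12.2 and 12.1 FPKM. The log2 fold change was -0.38 with a 95% interval of -0.78 to 0.01 (adjusted p = 0.934, limma; exact permutation p = 0.1). Without Model 3 it was -0.50 and passed the unadjusted threshold (adjusted p = 0.986, limma). The estimated reads of Smad2 did not show this difference. They stood at 87.0, 118 and 101 per 1000000 in control and at 118, 96.4 and 87.6 per 1000000 in PF model samples. With the sum weighted by row length, the log2 fold change was -0.01 (adjusted p = 0.996, limma).

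The plain sum and the estimated reads weigh the rows differently. Smad2 has 8 rows that range from 1071 to 14685 bases, and a read adds more FPKM to a short row than to a long one. The annotated ENSRNOT00000092173, of 2626 bases, was at 2.49, 3.22 and 3.27 FPKM in control samples and at 0.0527, 0 and 0.00593 FPKM in PF model samples. Without this row, Smad2 summed to between 8.89 and 13.4 FPKM in control and between 8.61 and 12.1 FPKM in PF model samples, with overlapping groups. The row itself was all but absent from the PF model libraries. Its log2 fold change was -1.96 with a standard error of 0.15 (adjusted p = 0.0504, limma), which just missed an adjusted p of 0.05. The adjusted p lay between 0.0239 (limma without trend) and 0.939 (with the replicate number as a block) under the alternatives, and the fold change of a row near 0 depends on the pseudocount.

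A further annotated Smad2 row of nearly the same length, ENSRNOT00000046847 (2598 bases), was at 2.31, 5.05 and 0.00751 FPKM in control and at 0.197, 0.463 and 4.91 FPKM in PF model samples. It was high in Model 3 and near 0 in Control 3, the reverse of the row above. Summed, this pair of rows had 4.80, 8.27 and 3.28 FPKM in control and 0.250, 0.463 and 4.92 FPKM in PF model samples, and the groups then overlapped. Isoforms of a gene share most of their exons, so how the reads were split between them is an estimate. The longest row, the assembled MSTRG.17049.6, held 18.7% ± 6.22 of Smad2 FPKM in control and 27.1% ± 1.68 in PF model samples (SD, n = 3). Its own FPKM overlapped, from 1.96 to 2.96 in control and from 2.47 to 3.30 in PF model samples. A share depends on the other rows of the gene as well, ENSRNOT00000092173 among them. No sample of the groups overlapped in the share of MSTRG.17049.6, which gives the smallest exact permutation p of 0.1. It was 0.8 after adjustment over the 12 shares compared, as for each of the other 11.

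**Figure D3:**
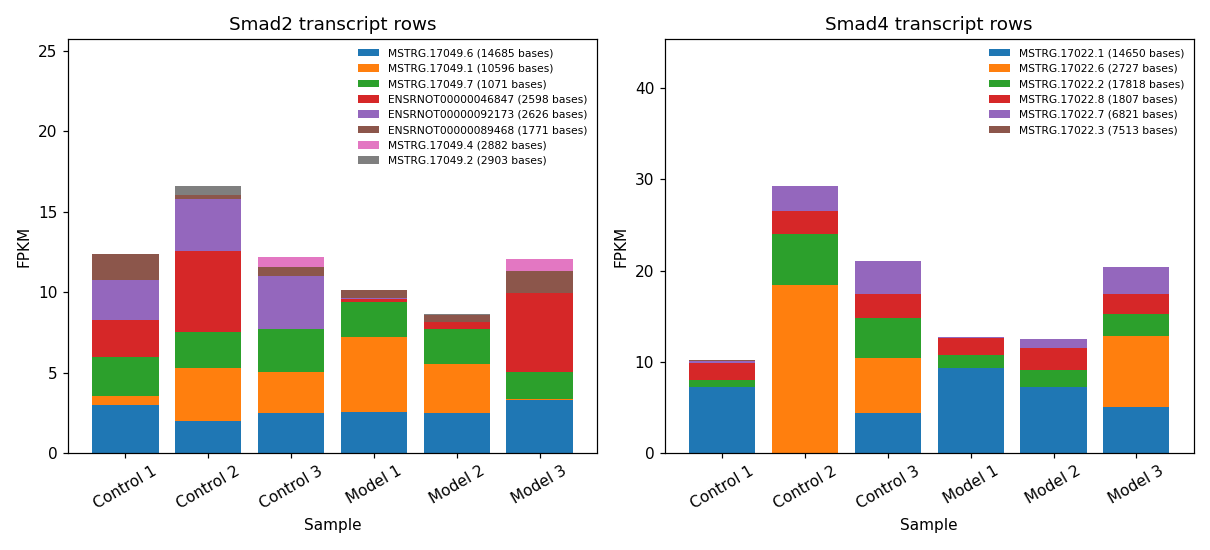
FPKM of each transcript row of Smad2 (left) and Smad4 (right) as stacked bars, 1 bar per rat, with row lengths in the legend. The Smad2 row ENSRNOT00000092173 is visible in the 3 control bars and not in the PF model bars, and the Smad4 row MSTRG.17022.6 is present in Control 2, Control 3 and Model 3 only.

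Smad4 (chr18:69617826-69672620, - strand), the partner shared by all signalling Smads, was carried by 6 assembled rows and no annotated one. The gene fit over all gene names, added after the data were seen, tested it. Its summed level had the largest SD of the members in control, 9.59 FPKM, with values of 10.2, 29.3 and 21.0 FPKM in that group and 12.8, 12.4 and 20.4 FPKM in PF model samples. This gave a log2 fold change of -0.30 with a 95% interval of -1.22 to 0.61 (adjusted p = 0.946, limma).

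The rows of Smad4 also varied between libraries of a group. The 2727-base MSTRG.17022.6 was at 0, 18.4 and 6.11 FPKM in control and at 0, 0 and 7.79 FPKM in PF model samples. The 14650-base MSTRG.17022.1 was at 7.21, 0.0165 and 4.35 FPKM in control and at 9.34, 7.18 and 4.99 FPKM in PF model samples. In Control 2 the short row was high and the long row near 0, and in 3 libraries the short row was at 0. Without the short row, the sum was between 10.2 and 14.9 FPKM in control and between 12.4 and 12.8 FPKM in PF model samples. The estimated reads of Smad4 had a mean of 211 per 1000000 in control and 207 per 1000000 in PF model samples.

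Smad3 (chr8:68569530-68678349, - strand), the Smad most tied to collagen gene induction, was at 21.8, 22.8 and 23.6 FPKM in control and at 22.7, 24.4 and 27.9 FPKM in PF model samples. Its log2 fold change was 0.13 (95% interval -0.10 to 0.35, adjusted p = 0.934, limma). Its annotated transcript ENSRNOT00000039730 made up 41.6% ± 0.952 of the sum in control and 39.1% ± 2.30 in PF model samples (SD, n = 3). Another 7 rows lay inside introns and summed to a mean of 10.9 FPKM in control and 12.1 FPKM in PF model samples.

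Smad7 (chr18:71395830-71424157, + strand), the inhibitory member, was at 18.5, 19.5 and 15.0 FPKM in control and at 18.7, 14.6 and 20.5 FPKM in PF model samples. The extremes of all 6 libraries both belonged to the PF model group. The log2 fold change was 0.01 (95% interval -0.36 to 0.38, adjusted p = 0.998, limma). Its annotated transcript ENSRNOT00000024831 ranged from 2.19 FPKM in Model 2 to 10.4 FPKM in Model 3, while its assembled rows together ranged only from 9.99 to 12.4 FPKM. Smad7 made up 24.2% ± 4.60 of the FPKM of the 4 Smads in control and 26.2% ± 2.50 in PF model samples (SD, n = 3; exact permutation p = 0.6). Tgfb1 made up 52.8% ± 1.48 of ligand FPKM in control and 50.2% ± 3.38 in PF model samples (SD, n = 3; exact permutation p = 0.3).

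In control lung the order of the summed levels, in FPKM, ran from Tgfbr2 (71.6) and Tgfbr3 (36.6) through Smad3 (22.7), Smad4 (20.2), Tgfbr1 (18.0), Smad7 (17.7), Tgfb1 (17.4), Smad2 (13.7) and Tgfb2 (11.5) to Tgfb3 (4.14). From Smad3 to Tgfb2, the ranges of neighbouring genes overlapped, so that their order is not fixed by these samples. The steps from Tgfbr2 to Tgfbr3, from Tgfbr3 to Smad3 and from Tgfb2 to Tgfb3 were larger than the spread between rats. The order depends on which rows count. Of the 58 rows, 23 lay inside introns, and 3 of these were, as the files give it, on the strand of the gene. Rows other than those that match or share a splice junction with an annotated transcript made up between 49.0% and 68.4% of the summed FPKM of Tgfbr1, between 45.3% and 50.3% of that of Smad3, between 32.7% and 35.8% of that of Tgfbr2, between 23.6% and 31.7% of that of Tgfbr3 and between 12.7% and 17.6% of that of Tgfb2. The other members had no such row. Over the remaining rows, control levels were 47.0 FPKM for Tgfbr2, 26.6 FPKM for Tgfbr3, 11.8 FPKM for Smad3 and 7.85 FPKM for Tgfbr1, so that Smad3 and Tgfbr1 fell below Smad7 and Tgfb1.

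Of the 58 rows, 55 were tested singly. An unadjusted p of 0.05 was passed by 2 of them, both lower in PF model samples, against 4.53% of the 64867 rows tested in all. Both also passed an absolute log2 ratio of group means of 1, as did 2.98% of all rows, and neither passed an adjusted p of 0.05, as 0.0277% of all rows did. The first was the Smad2 row ENSRNOT00000092173 described above. The other was MSTRG.10879.2, a row at chr14:3555002-3562285 inside an intron of Tgfbr3 on the same strand. It was at 0.984, 1.54 and 1.05 FPKM in control and at 0, 0.816 and 0 FPKM in PF model samples, with a log2 fold change of -0.84 (adjusted p = 0.945, limma). A row of the same locus, MSTRG.10879.1, was at 2.58, 1.19 and 0.994 FPKM in control and at 1.504, 2.30 and 2.55 FPKM in PF model samples, and the groups overlapped. The groups lay apart for 5 of the 55 rows, and for 10.4% of all rows.

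The other genes of the pathway were taken from 4 lists of 84 names, of which 79 were tested. The genes Mstn and Ep300 were not in the table under those names, and Eng, Zfyve9 and Cdkn2b had no annotated row. At an unadjusted p of 0.05, 1 gene rose (Col3a1) and 5 fell (Itgav, Ltbp3, Inhba, Il11 and Eln), which is 7.59% of the tested names against 4.9% of all genes. None passed an adjusted p of 0.05, and the adjusted p of each was 0.934. Of the 6, only Itgav passed the unadjusted threshold whichever rat was left out. The median log2 fold change over the 79 genes was 0.01. The groups lay apart for 5 of the 79 higher and 7 lower in PF model samples, and for 10.7% of all genes.

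Of the 20 genes of ligand latency and activation, 0 rose and 2 fell, which is 10% against 4.9% of all genes. Itgav, the alpha chain of the integrins that release TGF-beta from its latent complex, was at 32.5, 30.5 and 33.4 FPKM in control and at 25.6, 26.4 and 23.7 FPKM in PF model samples. Each PF model sample lay below each control sample, with a log2 fold change of -0.34 and a standard error of 0.08 (exact permutation p = 0.1, the smallest possible). The difference depended on the rows counted, since it was -0.13 over rows that match or share a junction with an annotated transcript and 0.14 over annotated transcripts only, and passed the threshold in neither. Ltbp3, which tethers latent TGF-beta to the matrix, was at 56.8, 124 and 48.2 FPKM in control and at 42.7, 16.7 and 23.8 FPKM in PF model samples (log2 fold change -1.40, exact permutation p = 0.1). Its 4 rows that overlap exons of the gene without sharing a junction summed to 41.9, 110 and 35.2 FPKM in control and to 27.4, 2.63 and 8.23 FPKM in PF model samples. Without them, Ltbp3 had a mean of 14.1 FPKM in control and 15.0 FPKM in PF model samples and a log2 fold change of 0.09 (adjusted p = 0.950, limma). Lrrc32 (GARP), which holds latent TGF-beta at the cell surface, was at 2.66, 5.12 and 4.34 FPKM in control and at 5.25, 6.11 and 6.31 FPKM in PF model samples. These groups did not overlap, and the log2 fold change was 0.48 (exact permutation p = 0.1). Furin, a protease that cleaves the TGF-beta precursor, was singled out after its values were seen. It was at 0.0641, 5.13 and 2.96 FPKM in control and at 6.49, 5.32 and 8.87 FPKM in PF model samples (exact permutation p = 0.1). Control 1 alone was near 0, which widens the fold change.

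Of 14 related receptors and ligands tested, 0 rose and 1 fell, which is 7.14% against 4.9% of all genes. Inhba, the beta A subunit of activins, had means of 0.283 and 0.157 FPKM in control and PF model samples (exact permutation p = 0.1), and its estimated reads were between 15.3 and 39.2 per library. Acvrl1 (ALK1), an endothelial type I receptor, was abundant, with means of 115 and 101 FPKM, and no sample of the groups overlapped (log2 fold change -0.18, exact permutation p = 0.1). Over annotated transcripts only, it was -0.24 and passed the unadjusted threshold (adjusted p = 0.972, limma). Acvr1c had means of 0.215 and 0.282 FPKM (exact permutation p = 0.3).

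None of 21 cofactors and inhibitors passed the threshold, against 4.9% of all genes. The smallest p belonged to Skil (SnoN), a repressor of Smad activity, at means of 10.3 and 8.99 FPKM in control and PF model samples (exact permutation p = 0.1). Rnf111 (Arkadia), a ubiquitin ligase that degrades Smad repressors, was at 10.6 and 11.8 FPKM (exact permutation p = 0.1). Its log2 fold change was 0.15 over all rows and 0.52 over annotated transcripts only, where it passed the unadjusted threshold (adjusted p = 0.972, limma). Smurf2, a ubiquitin ligase that acts with Smad7 on the receptors, was at 41.8 and 37.7 FPKM (exact permutation p = 0.3).

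Of 24 targets, 1 rose and 2 fell, which is 12.5% against 4.9% of all genes. Col3a1, a fibrillar collagen chain, was at 174, 178 and 154 FPKM in control and at 189, 204 and 233 FPKM in PF model samples. Each PF model sample exceeded each control sample, with a log2 fold change of 0.30 (exact permutation p = 0.1). Eln, which encodes elastin, was at 90.0, 98.1 and 82.3 FPKM in control and at 72.8, 83.1 and 71.2 FPKM in PF model samples, a log2 fold change of -0.25 (exact permutation p = 0.2). Il11, a profibrotic cytokine of fibroblasts, was near the floor of the table, at a mean of 0.117 FPKM in control and 0.0165 FPKM in PF model samples, with at most 10 estimated reads in a library (exact permutation p = 0.1).

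**Figure D4:**
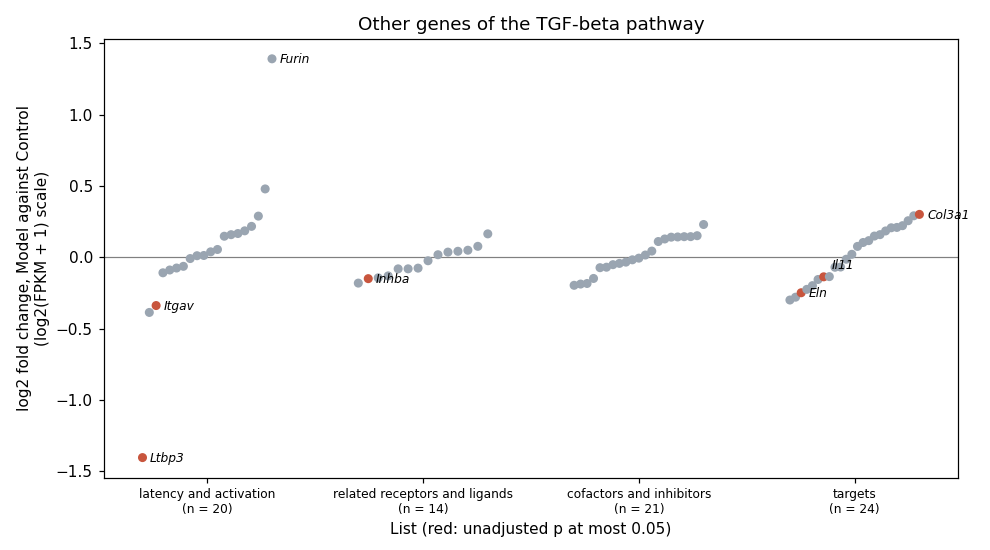
Log2 fold change of PF model against control samples on the log2(FPKM + 1) scale for the 79 tested genes of the 4 pathway lists, each list in rising order. Red points are the 6 genes with an unadjusted p of at most 0.05. Apart from Ltbp3 at -1.40 and Furin at 1.39, which missed the threshold, the points lie between -0.5 and 0.5.

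CircRNAs are closed RNA loops, most of them formed when a splice donor joins an upstream acceptor, and were found for 6 of the members. The only one of Smad3, ciRNA133, is classed as intronic and is counted among them. Tgfb1, Tgfb2, Tgfb3 and Smad7 had none in the table. The 12 circRNAs held 62 of 14904 back-splice reads (0.416%), with 34 in control and 28 in PF model samples, and 5 of the 12 had a single read. Smad4 held 5 of them and 49 of the 62 reads. Its reads summed to 11, 8 and 8 in control and to 6, 10 and 6 in PF model samples. Per 1000 back-splice reads of the library this was a mean of 3.63 in control and 3.12 in PF model samples, with overlapping groups (exact permutation p = 0.7). Such counts carry a large counting error.

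Of the 226 circRNAs with 10 or more reads, which could be tested, 2 were from Smad4, and neither passed an unadjusted p of 0.05, against 5.31% of those tested, or an adjusted p of 0.05, against 0.442%. The first, circRNA439, joins 4 exons at chr18:69647502-69657373. It had 6, 4 and 6 reads in control and 6, 2 and 0 reads in PF model samples, with a log2 fold change of -0.85 (adjusted p = 0.985, edgeR). This value was -2.09 without Model 1 and -0.31 without Model 3, and -1.85 on the scaled SRPBM values. The other, circRNA1581, spans 7 exons at chr18:69642130-69657373 and shares its upstream end in the gene with circRNA439. It had 4 reads in Control 2 and 7 in Model 2 and was at 0 in the other libraries (log2 fold change 0.83, adjusted p = 0.985, edgeR). It was 0.26 without Control 1 or without Control 3, 1.58 without Model 1, 1.32 without Model 3 and 0.29 on the SRPBM values.

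The remaining members had few reads. For Tgfbr2, circRNA1267 of 2 exons (chr8:124353233-124355370) had 1 read in Control 1, 2 in Model 1 and 1 in Model 2. The intronic ciRNA133 of Smad3 (chr8:68588576-68589784) had 3 reads, all in Control 2. The Tgfbr1 circRNA3788 of 7 exons (chr5:63094494-63111742) had 2 reads, both in Model 2. Tgfbr3 had 1 read of circRNA319 in Control 1, and Smad2 had 1 read of each of circRNA2326 and circRNA4324. At this depth no difference between the groups was detectable for them.

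**Figure D5:**
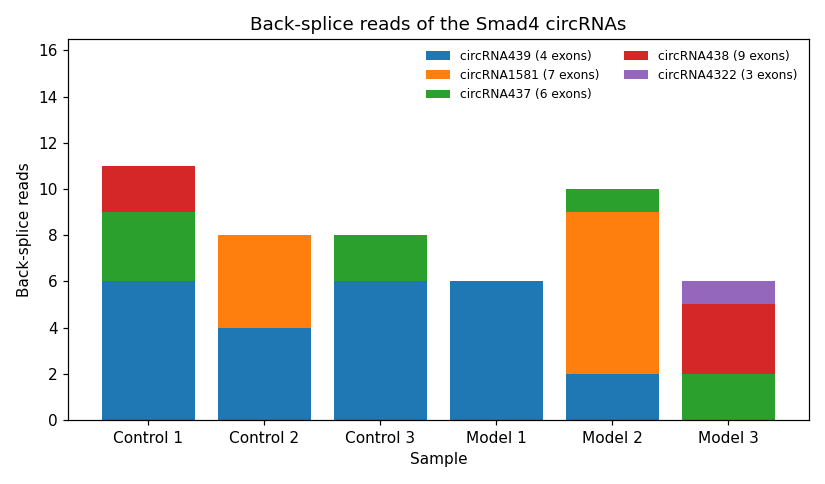
Back-splice reads of the 5 Smad4 circRNAs as stacked bars, 1 bar per rat, not scaled for depth. The control bars reach 11, 8 and 8 reads and the PF model bars 6, 10 and 6 reads, and circRNA439 is missing from Model 3.

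The genes whose pattern over the 6 samples lay closest to that of a member were found by the root mean square difference of log2(FPKM + 1) after centring each gene on its mean. Among 13890 genes, those closest to Tgfb1 were Dnajc11, Sf3b2 and Fxyd1, at 0.016 to 0.017 log2 units, against a median of 0.19 over all genes. Closest to Tgfbr2 were Ap1b1, Pgm3 and Eif4a3, at 0.011 to 0.018, and closest to Smad3 were Ptpn1, Tubb4b and Ip6k1, at 0.019 to 0.020. The genes named are those of smallest distance, so values far below the median follow from that selection. These distances describe likeness over 6 libraries that all genes share.

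The RefSeq promoters of the members (GRCr8) numbered 11, with 2 for Smad2, and the 250 bases before each start were examined. They had a median GC content of 68.4%, against 51.2% over 33469 rat promoters. The palindrome GTCTAGAC, a Smad binding element, was in 0 of the 11 and in 0.173% of all promoters on either strand. The shorter CAGAC, or GTCTG on the other strand, was in 0 of the 11 and in 42.9% of all. These letters are absent from these windows, which says nothing of the factors.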

How the data were processed

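Lung RNA of 3 control and 3 PF model rats was analysed, grouped by the condition in the labels. The authors depleted rRNA, sequenced paired reads of 150 bases, used Cutadapt for trimming, Bowtie2 and Tophat2 for mapping and StringTie for assembly, per the methods. The labels name a stranded total RNA kit and the methods an mRNA-seq kit, and whether strand was used in the assembly is not given in the sources used here. The submitters' processing notes name HISAT2, StringTie and TopHat, and versions and the genome build are not given in the sources used here. The authors deposited FPKM per transcript, estimated with StringTie and Ballgown, and the mean per-base coverage, a signal not scaled by library size. The circRNA table deposited by the authors holds counts of back-splice reads, as raw numbers from Tophat-fusion and CIRCExplorer, beside SRPBM, a signal scaled by a total per sample.

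FPKM were summed by gene name. Genes with at least 1 annotated transcript, and single transcripts, were tested when FPKM was above 0 in at least 3 of 6 samples. Groups were compared with limma 3.58.1 (with trend) in R 4.3.3 on log2(FPKM + 1), two-sided, with Benjamini-Hochberg adjustment over all features tested. A fold change is on that scale, which understates changes of low genes. Features with an unadjusted p of 0.05 or less were called, and those with an absolute log2 ratio of group means of 1 or more were also counted. For circRNAs, a sum of 10 or more reads was required, and edgeR 4.0.16 (quasi-likelihood, TMM) was used, with DESeq2 1.42.0 as an alternative. Shares of FPKM and single genes were compared with two-sided exact permutation tests, those of single genes added after the data were seen. Coverage multiplied by length and divided by 150 gave the estimated reads of a row.

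The members and lists were chosen with earlier results of these data known. All 10 members were named, with the most abundant row of each, rows and list genes at p of at most 0.05, the 3 list genes of smallest p per list, circRNAs with 10 or more reads and the most read circRNA per member. Likeness was computed for the most abundant ligand, receptor and Smad among genes with a mean FPKM of at least 1. The tests were run on simulated data at an adjusted p of 0.05. For 200 of the more abundant genes changed by 2 log2 units, limma recovered 100%, with 5 false calls. Each simulated gene had the spread typical of its level. Smaller changes, such as those of the members, were not simulated, so their recovery is not known. For 20 circRNAs changed by 3 log2 units, edgeR recovered 45%, with 1 false call, so that many circRNA changes of that size would be missed. Alternatives were other pseudocounts, filters, scalings, sums over rows and tests, as well as a replicate block and the removal of each rat in turn. Intervals cover the spread between rats, and counts of reads carry counting error in addition. Python 3.11.15 with pandas 2.3.3, numpy 2.4.6, scipy 1.17.1 and matplotlib 3.10.9 was used for tables, exact tests and figures.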

Additional observations from a re-analysis of the deposited data

How the results depend on the processing

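The count of member genes at an unadjusted p of 0.05 was 0 and became 1 (Tgfbr2) after rescaling to TPM, after median-of-ratios scaling and over rows that match or share a junction with an annotated transcript. It ranged from 0 to 1 when each rat was left out, with Tgfbr1 passing without Control 1, Tgfbr2 without Model 2 and Smad2 without Model 3. The count of member transcripts was 2, became 1 with a mean FPKM of at least 1, which removes MSTRG.10879.2, and ranged from 1 to 3 when each rat was left out. It was 1 without Control 2 or without Model 1. After rescaling to TPM it was 3. Transcripts that also passed the fold threshold had the same counts, except after rescaling to TPM and without Model 3. In these 2 settings, 3 passed the unadjusted p and 2 passed both.

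The count of pathway list genes was 6 and became 3 in limma without trend, with sums weighted by length and over rows that match or share a junction, and it ranged from 3 to 6 when each rat was left out (3 without Control 1 or Model 2). Those past both thresholds were 2 (Ltbp3 and Il11) and became 1 under the same 3 alternatives and with a mean FPKM of at least 1, and ranged from 0 to 2 when each rat was left out (0 without Model 2 or Model 3). Calls were lost for Ltbp3 without Model 2 or Model 3 (log2 fold change -1.10 and -1.35), for Il11 without the same rats (-0.13 and -0.12), for Inhba without any rat but Control 2 (-0.12 to -0.16), for Col3a1 without any rat but Model 1 (0.22 to 0.34), for Eln without Control 1, Control 2, Model 1 or Model 3 (-0.19 to -0.25) and for MSTRG.10879.2 without Control 2, Model 1 or Model 3 (-0.69 to -0.72). Lrrc32 passed without Control 2 (0.64) and Smurf2 without Model 1 (-0.22). No member circRNA passed under edgeR, DESeq2 or SRPBM with limma.

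The direction depended on which rows were summed. Over annotated transcripts only, the log2 fold change was -0.0857 for Tgfb3, 0.56 for Tgfbr1, -0.13 for Smad7, 0.14 for Itgav and 0.22 for Smurf2, and the Tgfbr3 share of receptors was 1.14 percentage points higher in PF model samples in place of 1.26 lower. Rnf111 (0.52) and Acvrl1 (-0.24) passed over these transcripts, and Ltbp3 (-0.10) and Eln (-0.21) did not. Lrrc32 passed after rescaling to TPM (0.60) and with a mean FPKM of at least 1 (0.48). Over rows that match or share a junction, Ltbp3 was at 0.0857. With TPM, MSTRG.10876.3 was at 0.0227. The alternatives differ by construction in the rows or the scale used, and no further cause was tested.

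When each rat was left out, log2 fold changes ranged from -0.0815 to 0.0709 for Tgfb1 and its transcript ENSRNOT00000028051, from -0.0157 to 0.30 for Tgfb2, from -0.0914 to 0.33 for Tgfb3, from -0.0245 to 0.0507 for Tgfbr3 and from -0.0942 to 0.15 for Smad7. They ranged from -0.0603 to 0.24 for ENSRNOT00000003313, from -0.17 to 0.10 for MSTRG.10876.3, from -0.0736 to 0.10 for ENSRNOT00000039730 and from -0.52 to 0.40 for ENSRNOT00000024831. Shares of a gene differed by -4.33 to 0.0542 percentage points for ENSRNOT00000003313, -2.61 to 15.2 for MSTRG.31203.2, -6.74 to 2.87 for MSTRG.27937.4, -5.89 to 4.67 for MSTRG.10876.3 and -10.5 to 7.27 for ENSRNOT00000024831.

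With the replicate number as a block, 0 member genes passed, ENSRNOT00000092173 had an adjusted p of 0.939, Lrrc32 passed and Inhba and Col3a1 did not. What samples of the same number share is not given in the sources used here. The correlations of their deviations were 0.073, 0.032 and -0.075. Those of samples of unlike number ran from -0.139 to 0.101, and a shared preparation was not tested. Over the 6 samples, 3 rats a group and few back-splice reads limit what could be detected.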
